A study of Mus musculus with 12 samples.

Results

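Genes of dendritic cells and of MHC class II antigen presentation were followed in LSK cells, the bone marrow cells that lack lineage markers and carry Sca1 and Kit, a fraction of haematopoietic stem cells and multipotent progenitors. The list held 10 genes, chosen by name for their known roles and with earlier results of these data known: the class II genes Cd74, H2-Aa, H2-Ab1, H2-Eb1 and Ciita, the transcription factors Irf8, Tcf4 and Id2, and the surface receptors Siglech and Itgax. A gene was taken where the array had a probe set annotated to its symbol alone, and the brightest such probe set by its mean over the 12 arrays was used. Of the 10 genes, 9 met this rule, out of 22180 genes measured in the same way. Cd74 did not, since its probe set is annotated to Cd74 and to the microRNA gene Mir5107 together. That probe set is described apart from the rest.

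The cells came from C57BL/6 mice in 4 groups of 3 arrays each. These were Mll5-/- mice given N-acetyl-L-cysteine (NAC), a quencher of reactive oxygen species, wild-type mice given NAC, Mll5-/- mice without NAC (mock) and wild-type mice without NAC (mock). Mll5, now named Kmt2e, encodes a chromatin regulator. NAC was given at 1 g per liter of drinking water from the mating of the Mll5+/- parents and through the life of the offspring. The labels give neither the age of the mice nor the design of the deleted allele, and they do not say whether each array holds RNA of its own mouse or of a pool. What the p-values measure is therefore the spread among these 12 arrays, part or all of which may be technical.

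MHC class II molecules are pairs of an alpha and a beta chain that show peptides from endosomes to CD4 T cells. The invariant chain, the product of Cd74, guides them through the cell, and the coactivator CIITA switches their genes on together by binding the RFX, CREB and NF-Y factors that sit on a shared promoter module. Dendritic cells are the main class II presenting cells and arise from multipotent progenitors: IRF8 directs early dendritic cell and monocyte progenitors, TCF4 (also called E2-2) specifies plasmacytoid dendritic cells, and ID2, an inhibitor of E proteins such as TCF4, favours conventional dendritic cells. Siglec-H, the product of Siglech, is a surface lectin of mouse plasmacytoid dendritic cells, and Itgax encodes CD11c, the integrin used to define dendritic cells.

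The promoters of H2-Aa and H2-Eb1 are shown because these genes had lower mean signals in the mutant under both treatments and letters of the module that CIITA acts on occur in both. Each sequence is the 150 bases before the annotated start, 5′ to 3′ on the gene's own strand, from RefSeq (GRCm38.p6). Capitals mark GCAAC, letters of the X box that RFX is known to bind, and CTGATTGG, letters of the Y box that NF-Y is known to bind.
H2-Aa, minus strand of chr17:34287824-34287973: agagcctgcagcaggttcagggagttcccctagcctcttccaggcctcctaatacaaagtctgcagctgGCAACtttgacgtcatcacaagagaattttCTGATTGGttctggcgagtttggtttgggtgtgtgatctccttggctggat
H2-Eb1, plus strand of chr17:34305717-34305866: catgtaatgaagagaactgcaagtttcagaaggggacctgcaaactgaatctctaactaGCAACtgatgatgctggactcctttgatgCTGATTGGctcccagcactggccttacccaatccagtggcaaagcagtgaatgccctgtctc
The motifs lie in the same order and 25 bases apart in H2-Aa and 24 bases apart in H2-Eb1. Searched on both strands of the 250 bases before the start, CTGATTGG was in 3.83% of 32851 promoters, GCAAC in 29.9% and both in 1.22%. Of the 10 genes, 6 had a promoter in this table, and of the other 4 with one, Irf8 held CTGATTGG before 1 of its 2 listed starts and Siglech and Itgax held GCAAC. The letters were chosen after the H2-Aa and H2-Eb1 sequences had been read, and a match of letters is a description, not a shown binding site.

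The values are log2 signals of RMA-processed Affymetrix arrays, tested with limma on all 22180 genes and adjusted by Benjamini-Hochberg at a threshold of 0.05. Array medians lay between 2.89 and 2.96, and pairs of arrays correlated at 0.976 to 0.988. The arrays least like the rest were mutant NAC replicate 1, with an array weight of 0.54, and wild-type mock replicate 1, with one of 0.71, where the highest was 1.35. The median gene had a mean log2 signal of 3.17, and of the 9 genes Itgax alone lay below it. Kmt2e had mean signals between 7.12 and 7.27 in the mutant groups and between 7.52 and 7.55 in the wild-type groups (adjusted p = 0.419 over both treatments), and the part of the gene that its probe set reads is not given, so this does not check the genotype labels. LSK markers were bright, with Kit at 8.74 to 9.24 and Cd34 at 9.87 to 10.52 over the arrays, while Sca1 (Ly6a) could not be read from a single-symbol probe set. Of the 2 dendritic cell surface genes among the 9, Siglech spanned 2.66 to 3.97 and Itgax 2.23 to 3.21. Other genes known from dendritic cells ran from bright to dim. Clec12a had a mean of 8.23 and Bst2 one of 7.73, while Fscn1 had 3.03 and Spib 2.66. Of the dendritic cell lists described below, 5 of 15 plasmacytoid and 7 of 17 conventional genes lay below the median gene.

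**Figure D1:**
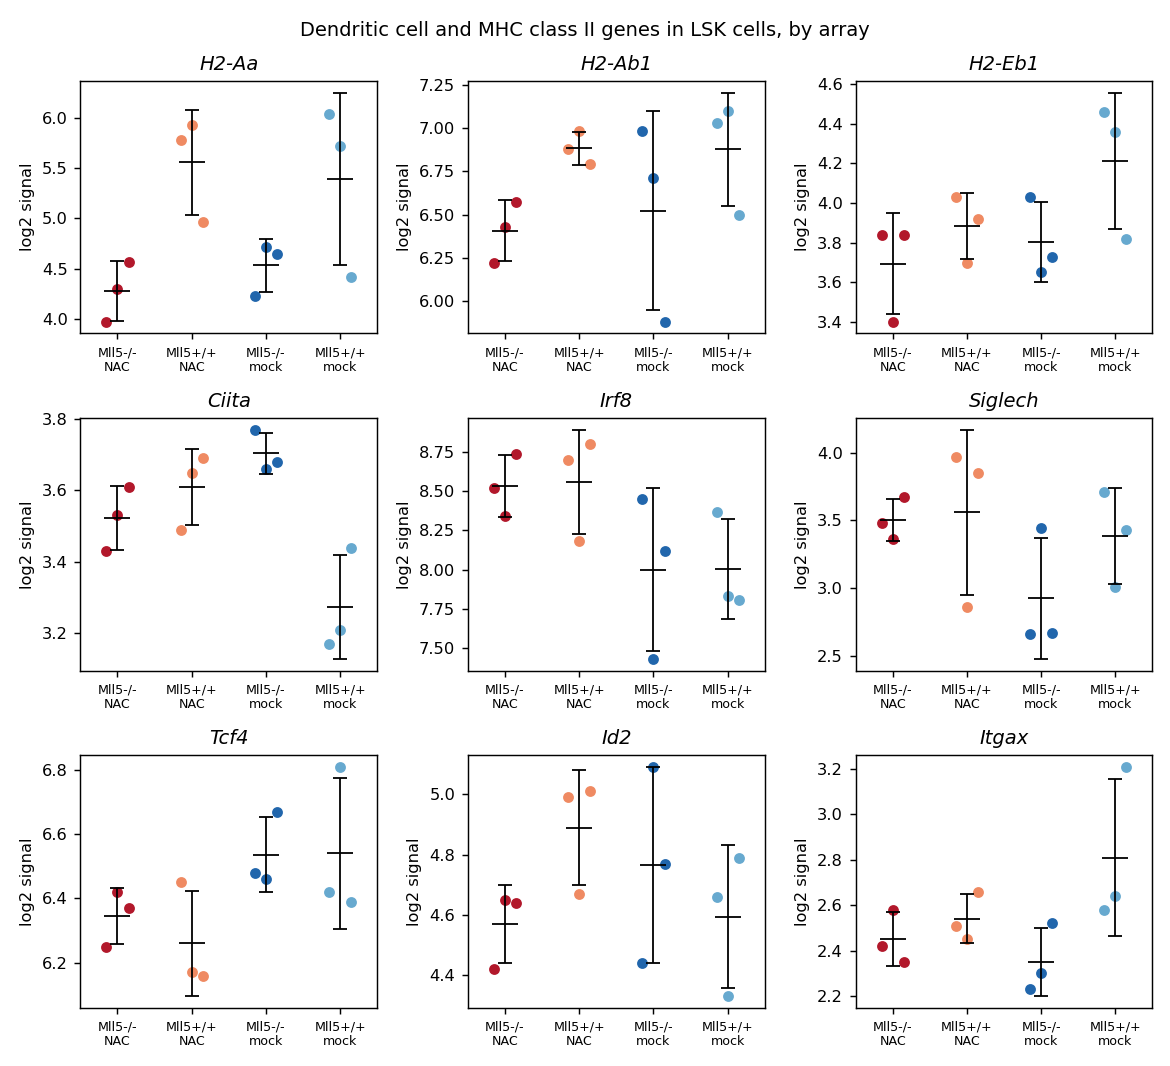
Log2 signal of the 9 genes (vertical axes, one scale per gene) on each of the 12 arrays, in 4 groups of 3; points are arrays, the wide tick is the group mean and the bars are 1 SD. H2-Aa lay between 3.97 and 4.72 on the 6 mutant arrays, and 5 of the 6 wild-type arrays lay above 4.72.

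The genotype comparison asked whether the loss of Mll5 alters these genes in LSK cells, with and without the quencher. The class II chain genes had lower mean signals in the mutant under both treatments, and H2-Aa showed the widest gap, 2.10-fold over both treatments. Ciita, their coactivator, did not share this direction in mock cells, where its signal was higher in the mutant. Irf8 and Tcf4 differed little between genotypes. None of the 9 genes passed limma's test over all genes in mock, in NAC or over both treatments. The called share of all genes was 0.00902% in mock, 0% in NAC and 0.00902% over both treatments.

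H2-Aa, the alpha chain of the I-A molecule, had log2 signals of 3.97, 4.30 and 4.57 on the mutant NAC arrays, against 5.78, 5.93 and 4.96 on the wild-type NAC arrays. In mock cells it had 4.23, 4.72 and 4.65 in the mutant, against 6.04, 5.72 and 4.42 in wild type. The NAC groups did not overlap, as was so in the same direction for 6.05% of all genes, and in mock cells wild-type replicate 3 lay among the mutant arrays. Its log2 difference was -1.28 in NAC (SE 0.36, limma unadjusted p = 0.00374, adjusted p = 0.541) and -0.86 in mock (SE 0.36, unadjusted p = 0.0336, adjusted p = 0.722). The estimate for both treatments together was -1.07 (SE 0.26, 95% confidence interval -1.62 to -0.52, limma adjusted p = 0.242). Of the 6 wild-type arrays, 5 lay above every mutant array. With each array left out in turn, the estimate over both treatments ranged from -1.31 to -0.91, with limma adjusted p from 0.0780 to 0.432. Without wild-type mock replicate 3, the exception, it was -1.31, and the mock difference was -1.35. Leaving out wild-type mock replicate 1 gave -0.54 in mock.

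H2-Ab1, the beta chain that pairs with H2-Aa, had 6.22, 6.43 and 6.57 on the mutant NAC arrays, against 6.88, 6.98 and 6.79 on the wild-type NAC arrays. In mock cells it had 6.98, 6.71 and 5.88 in the mutant, against 7.03, 7.10 and 6.50 in wild type. As for H2-Aa, the NAC groups were apart and the mock groups overlapped, here through the high mutant replicate 1 and the low wild-type replicate 3. The log2 difference was -0.48 in NAC (SE 0.24) and -0.35 in mock (SE 0.24). Over both treatments it was -0.42 (SE 0.17, 95% confidence interval -0.79 to -0.04, unadjusted p = 0.0312, limma adjusted p = 0.495). Without mutant mock replicate 3 the difference was -0.03 in mock and -0.25 over both treatments.

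H2-Eb1, a beta chain of the I-E molecule, had 3.84, 3.40 and 3.84 on the mutant NAC arrays, against 4.03, 3.70 and 3.92 on the wild-type NAC arrays. In mock cells it had 4.03, 3.65 and 3.73 in the mutant, against 4.46, 4.36 and 3.82 in wild type. The groups overlapped under both treatments, again with wild-type mock replicate 3 as the lowest of its group. Its log2 difference over both treatments was -0.30 (SE 0.13, 95% confidence interval -0.59 to -0.01, unadjusted p = 0.0426, limma adjusted p = 0.539), with -0.19 in NAC and -0.41 in mock (SE 0.19 each). The NAC value was -0.043 without mutant NAC replicate 2 and -0.12 without wild-type NAC replicate 1. C57BL/6 mice are known to carry a defective H2-Ea gene and so to make no I-E on the cell surface, although H2-Eb1 is transcribed. H2-Ea itself had a mean log2 signal of 2.05, below the median gene.

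The probe set annotated to both Cd74 and Mir5107 separated the genotypes on every array. It gave 4.99, 5.26 and 5.49 on the mutant NAC arrays, against 6.62, 6.04 and 5.91 on the wild-type NAC arrays. In mock cells it gave 5.27, 5.54 and 5.13 in the mutant, against 6.27, 6.37 and 6.14 in wild type. The highest mutant array thus lay below the lowest wild-type array, as was so for 0.225% of the 41345 probe sets on the array. In a fit over all these probe sets, limma gave a log2 difference of -0.95 in mock (SE 0.20), -0.94 in NAC (SE 0.20) and -0.95 over both treatments (SE 0.14, 95% confidence interval -1.26 to -0.63). The adjusted p over both treatments was 0.139 (unadjusted p = 4.46e-05), and that fit called 0.00484% of the probe sets and had 3.87% lower in the mutant at an unadjusted p under 0.05. With each array left out in turn the difference ranged from -1.02 to -0.84, with adjusted p from 0.133 to 0.312. The signal cannot be assigned to either gene, and it is not counted among the 9.

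**Figure D2:**
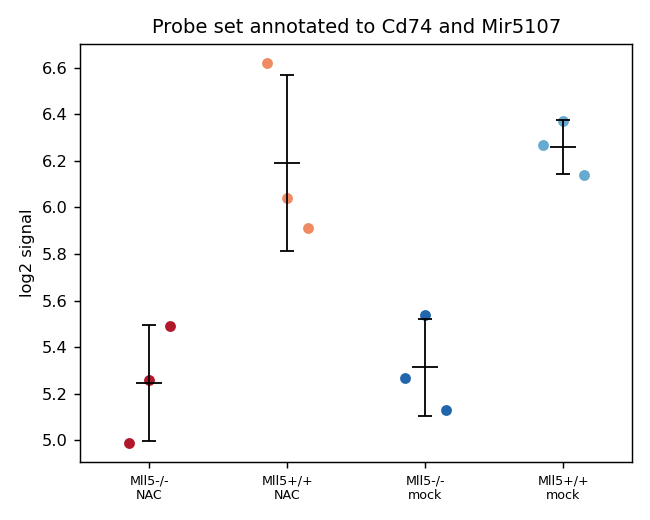
Log2 signal (vertical axis) of the probe set annotated to Cd74 and Mir5107 together, on each of the 12 arrays in 4 groups of 3; points are arrays, the wide tick is the group mean and the bars are 1 SD. The mutant means were 5.25 with NAC and 5.31 in mock, and the wild-type means were 6.19 with NAC and 6.26 in mock.

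Ciita had 3.43, 3.53 and 3.61 on the mutant NAC arrays, against 3.49, 3.65 and 3.69 on the wild-type NAC arrays. In mock cells it had 3.77, 3.66 and 3.68 in the mutant, against 3.17, 3.21 and 3.44 in wild type. All mutant mock arrays thus lay above all wild-type mock arrays, as for 5.94% of all genes, while the NAC groups overlapped. The log2 difference was 0.43 in mock (SE 0.12, 95% confidence interval 0.17 to 0.69, unadjusted p = 0.00313, limma adjusted p = 0.535) and -0.09 in NAC (SE 0.12). The estimate for both treatments together was 0.17 (SE 0.08, limma adjusted p = 0.569). With all its values between 3.17 and 3.77, near the median gene, Ciita was measured over a narrow and dim range.

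Irf8 spanned 7.43 to 8.74 on the 6 mutant arrays, against 7.81 to 8.80 on the 6 wild-type arrays, with wide overlap. Its genotype difference over both treatments was -0.02 (SE 0.18, limma adjusted p = 0.986), and the 95% confidence interval of -0.40 to 0.37 leaves room for a difference either way. Tcf4 averaged 6.35 ± 0.09 in mutant NAC cells, against 6.26 ± 0.16 in wild-type NAC cells, and 6.54 ± 0.12 in mutant mock cells, against 6.54 ± 0.23 in wild-type mock cells (SD, n = 3 each). Its genotype difference was 0.04 (SE 0.10, interval -0.18 to 0.26). These are the factors of early and plasmacytoid dendritic cell fate. The estimates for the class II chain genes were -1.07 for H2-Aa, -0.42 for H2-Ab1 and -0.30 for H2-Eb1. They were not tested against those of Irf8 and Tcf4. The part of either factor in the class II differences was not tested.

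Id2 had 4.42, 4.65 and 4.64 on the mutant NAC arrays, against 4.99, 4.67 and 5.01 on the wild-type NAC arrays, and 4.44, 5.09 and 4.77 on the mutant mock arrays, against 4.66, 4.33 and 4.79 on the wild-type mock arrays. Its log2 difference was -0.32 in NAC (SE 0.18), where the groups did not overlap, and 0.17 in mock (SE 0.18), where they did. Siglech had 3.48, 3.36 and 3.67 on the mutant NAC arrays, against 3.97, 2.86 and 3.85 on the wild-type NAC arrays, and 2.66, 3.44 and 2.67 on the mutant mock arrays, against 3.71, 3.01 and 3.43 on the wild-type mock arrays. It scattered widely in every group except mutant NAC, and its difference over both treatments was -0.26 (SE 0.21, limma adjusted p = 0.748). Itgax had 2.42, 2.58 and 2.35 on the mutant NAC arrays, against 2.51, 2.45 and 2.66 on the wild-type NAC arrays, and 2.23, 2.30 and 2.52 on the mutant mock arrays, against 2.58, 2.64 and 3.21 on the wild-type mock arrays. The mock groups of Itgax were apart, with a log2 difference of -0.46 (SE 0.16, limma adjusted p = 0.677). Wild-type mock replicate 3, at 3.21, was the one Itgax signal above the median gene, and without it the mock difference was -0.26 and that over both treatments -0.175, against -0.28 with it.

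In counts, 7 of the 9 genes had a lower mean in the mutant over both treatments, with a median log2 difference of -0.26, or -0.16 without wild-type NAC replicate 1, against 0.0033 over all genes. At an unadjusted p under 0.05, limma gave 4 of 9 over both treatments, all lower in the mutant (H2-Aa, H2-Ab1, H2-Eb1 and Itgax), where 9.08% of all genes passed, 4.34% lower and 4.74% higher. In mock it gave 4 of 9, with H2-Aa, H2-Eb1 and Itgax lower and Ciita higher, where 6.63% of all genes passed, 3.08% lower and 3.55% higher. In NAC it gave 1 of 9, H2-Aa, which was lower, where 7.17% passed, 3.71% lower and 3.46% higher. The arrays of the compared groups were fully apart, with the mutant below, for 1 of 9 in mock, against 5.46% of all genes. In NAC they were so for 3 of 9 (H2-Aa, H2-Ab1 and Id2), against 6.05%, and over both treatments for 0 of 9, against 0.234%. With the mutant above, they were so over both treatments for 0 of 9, against 0.311%, and in NAC for 0 of 9, against 6.39%. In such bulk samples, fewer cells that carry a transcript and less of it per cell cannot be told apart.

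**Figure D3:**
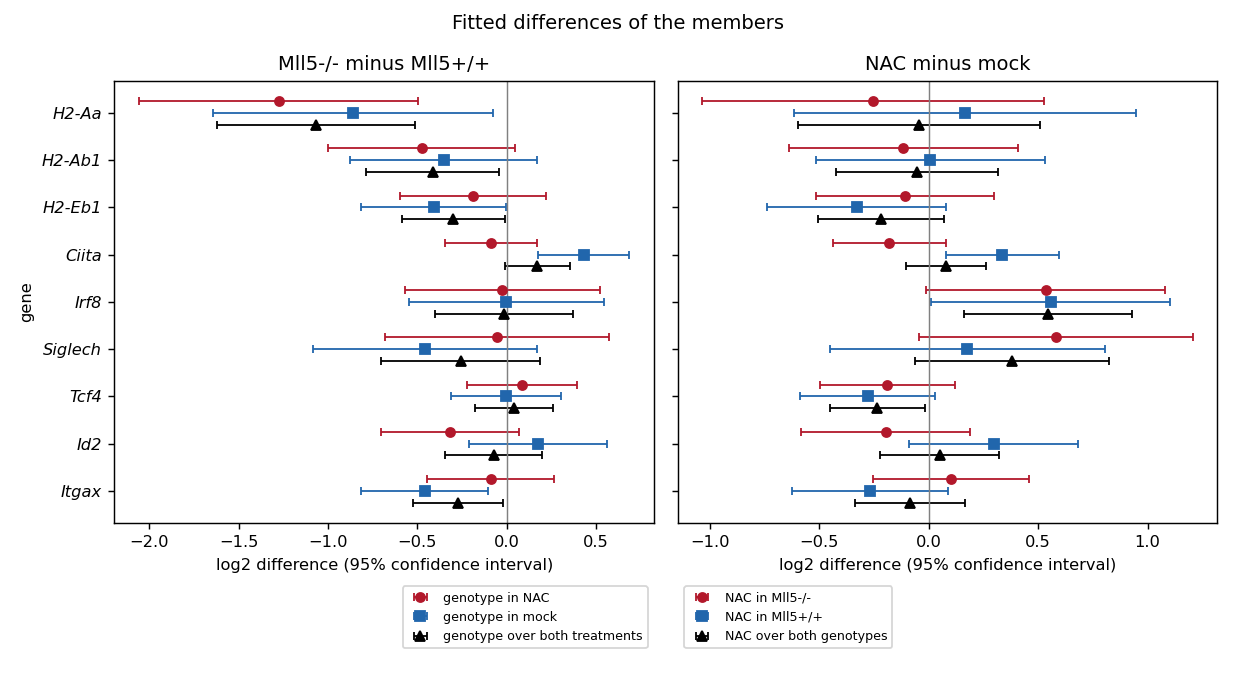
Fitted log2 differences (horizontal axes) with 95% confidence intervals for the 9 genes, from 1 limma fit to all 12 arrays; the left panel gives the mutant minus wild type and the right panel NAC minus mock. The intervals of H2-Aa lie below 0 in NAC, in mock and over both treatments, and Irf8 has a NAC difference of 0.53 in mutant and 0.56 in wild-type cells.

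The NAC comparison asked what the quencher alters in each genotype. Irf8 had a higher mean with NAC in both genotypes, and Tcf4 a lower one. The class II chain genes had smaller NAC than genotype estimates over all arrays, though for H2-Eb1 these were close (-0.22 and -0.30, SE 0.13 each). Ciita lay on opposite sides in mutant and wild type. None of the 9 genes passed in the mutant, in wild type or over both genotypes, where 0.00451%, 0.00902% and 0.00451% of all genes were called.

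Irf8 had 8.52, 8.34 and 8.74 on the mutant NAC arrays, against 8.45, 7.43 and 8.12 on the mutant mock arrays. In wild type it had 8.70, 8.18 and 8.80 with NAC, against 8.37, 7.83 and 7.81 in mock. Of the 6 NAC arrays, 4 lay above all mock arrays, and of the 6 mock arrays, 4 lay below all NAC arrays. The log2 difference was 0.53 in the mutant (SE 0.25, unadjusted p = 0.0547) and 0.56 in wild type (SE 0.25, unadjusted p = 0.0462). The estimate for both genotypes together was 0.55 (SE 0.18, 1.46-fold, 95% confidence interval 0.16 to 0.93, unadjusted p = 0.00932, limma adjusted p = 0.487). With each array left out in turn it ranged from 0.40 to 0.66, and the difference in the mutant was 0.25 without mutant mock replicate 2, the lowest array. A second, dimmer probe set of Irf8 alone gave 0.48 over both genotypes (SE 0.29), with -0.16 to 1.13 as its interval.

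Tcf4 had 6.25, 6.42 and 6.37 on the mutant NAC arrays, against 6.48, 6.46 and 6.67 on the mutant mock arrays. In wild type it had 6.45, 6.17 and 6.16 with NAC, against 6.42, 6.81 and 6.39 in mock. The mutant groups were apart, as were those of Ciita and 5.14% of all genes in this direction, and the wild-type groups overlapped through NAC replicate 1. Its log2 difference over both genotypes was -0.24 (SE 0.10, 95% confidence interval -0.45 to -0.02, unadjusted p = 0.0362, limma adjusted p = 0.631). Siglech, the plasmacytoid receptor, had a difference of 0.58 in the mutant (SE 0.29, unadjusted p = 0.0671) and 0.18 in wild type (SE 0.29), and 0.38 over both genotypes (SE 0.21, limma adjusted p = 0.737). The difference of Siglech in the mutant rests on levels at the dim end, with mock arrays at 2.66, 3.44 and 2.67.

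H2-Aa had a NAC difference of -0.25 in the mutant and 0.16 in wild type (SE 0.36 each), and over both genotypes -0.045 (SE 0.26, 95% confidence interval -0.60 to 0.51). H2-Ab1 had -0.055 over both genotypes (SE 0.17, interval -0.43 to 0.32). H2-Eb1 had -0.11 in the mutant and -0.33 in wild type (SE 0.19 each), and over both genotypes -0.22 (SE 0.13, interval -0.51 to 0.07). These intervals are wide, and those of H2-Aa and H2-Ab1 hold 0 near their centre. Id2 had -0.20 in the mutant and 0.30 in wild type (SE 0.18 each), and Itgax had 0.10 in the mutant and -0.27 in wild type (SE 0.16 each). The probe set of Cd74 and Mir5107 had -0.07 over both genotypes (SE 0.14, interval -0.38 to 0.25). At an unadjusted p under 0.05, limma gave 0 of 9 in the mutant, where 5.86% of all genes passed, 3.18% lower and 2.68% higher. For wild type it gave 2 of 9, Ciita and Irf8, both higher with NAC, where 5.92% passed, 2.96% in each direction. Over both genotypes it gave Irf8, higher, and Tcf4, lower, where 7.43% passed, 3.88% lower and 3.55% higher. The arrays of Ciita were apart in wild type too, with NAC above, as for 5.42% of all genes, and no member was apart there with NAC below, as 5.32% were. In the mutant none was apart with NAC above, as 5.08% were, and over both genotypes none was, as 0.203% were with NAC below and 0.135% with NAC above. The genotype and NAC comparisons use the same 12 arrays and are not independent of each other.

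The interaction, the NAC difference in the mutant minus that in wild type, was called for none of the 9 genes and for 0% of all genes. At an unadjusted p under 0.05 limma gave 1 of 9, Ciita, where 4.21% of all genes passed, 2.2% below 0 and 2.02% above. Its log2 interaction was -0.52 (SE 0.17, 95% confidence interval -0.88 to -0.15, unadjusted p = 0.00888, adjusted p = 0.999). Id2 had -0.49 (SE 0.25), Siglech 0.40 (SE 0.41) and H2-Aa -0.42 (SE 0.51), each with an interval that holds 0. Irf8 had -0.02 (SE 0.36, interval -0.80 to 0.75), too wide to tell whether its NAC difference was alike in both genotypes.

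Of the 36 pairs of the 9 genes, 3 had an unadjusted permutation p under 0.05 for r and none passed after adjustment. Over the 12 arrays, H2-Aa and H2-Ab1 correlated at r = 0.65 (rho = 0.65; permutation p = 0.0204 and 0.0267, adjusted p = 0.444 and 0.48 over 36 pairs), and at r = 0.55 without the 2 arrays farthest from the median of H2-Aa. H2-Ab1 and H2-Eb1 correlated at r = 0.59 (rho = 0.65; permutation p = 0.0471 and 0.0259, adjusted p = 0.51 and 0.48), and at 0.75 without the 2 farthest arrays. H2-Eb1 and Ciita correlated at r = -0.64 (rho = -0.35; permutation p = 0.0247 and 0.259, adjusted p = 0.444 and 0.725). Without the 2 arrays farthest from the median of H2-Eb1 it was 0.12, so the value over 12 arrays depends on those 2. With each group's mean removed, H2-Aa and H2-Ab1 correlated at 0.37, H2-Ab1 and H2-Eb1 at 0.45 and H2-Eb1 and Ciita at -0.48. H2-Aa and Irf8 correlated at r = -0.02 (rho = -0.06; permutation p = 0.947 and 0.869, adjusted p = 0.978 and 0.989), and H2-Ab1 and H2-Eb1 correlated with Irf8 at 0.01 and 0.11. With group means removed, r with Irf8 was -0.03 for H2-Aa, 0.08 for H2-Ab1 and 0.70 for H2-Eb1. For Itgax these values were -0.76, -0.75 and -0.76. Correlations with group means removed were not tested.

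**Figure D4:**
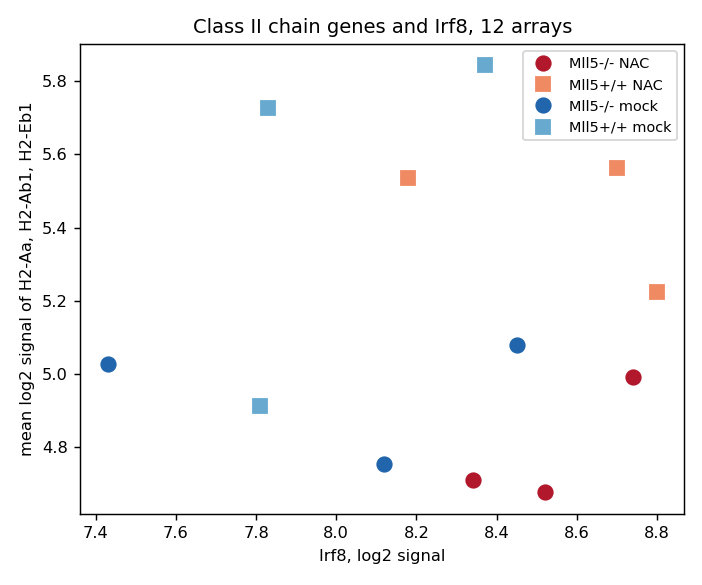
Mean log2 signal of H2-Aa, H2-Ab1 and H2-Eb1 (vertical axis) against the log2 signal of Irf8 (horizontal axis) on the 12 arrays; circles are mutant and squares wild-type arrays. The class II mean was 4.68 to 4.99 in mutant NAC and 5.22 to 5.56 in wild-type NAC arrays, and 4.75 to 5.08 in mutant mock and 4.91 to 5.84 in wild-type mock arrays, the lowest of these being replicate 3.

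The genes most like the mean of H2-Aa, H2-Ab1 and H2-Eb1 over the 12 arrays, among 10392 genes at or above the median level, were Snx17, an endosomal sorting protein (r = 0.90), the lipoprotein receptor Vldlr (0.90), the immune cell adaptor Clnk (0.90), Kctd12 (0.89) and the transcription factor Bhlha15 (0.89). Those most like Irf8 were the growth factor receptor Met (0.91), the mitochondrial peptidase Mipep (0.90), the peptidase Prep (0.90), the phosphatase Ptpn2 (0.88) and Selenos, a selenoprotein of the endoplasmic reticulum (0.87). With group means removed these correlations were 0.74 to 0.96 for the first set and 0.77 to 0.88 for the second. They are the highest of many and describe these 12 arrays only.

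The other genes of the pathway were taken from 7 lists, and limma called 0 of their members by genotype over both treatments and 0 by NAC over both genotypes, where it called 0.00902% and 0.00451% of all genes, so that a count of 0 says little about the lists. The other class II genes showed no common direction with genotype: 4 of 7 measured had lower means in the mutant and 3 higher ones, with a median log2 difference of -0.02. H2-Ob, the beta chain of the H2-O molecule that restrains peptide loading, stood out among them, at 4.42 to 4.76 in mutant mock cells, against 4.86 to 6.02 in wild-type mock cells, and 4.11 to 4.69 in mutant NAC cells, against 4.99 to 5.31 in wild-type NAC cells. Its groups did not overlap over both treatments, as for 0.234% of all genes, with a log2 difference of -0.80 (SE 0.17, unadjusted p = 0.000478, limma adjusted p = 0.189). H2-Ea had -0.12 (SE 0.10) and H2-DMb1, a beta chain of the peptide exchange factor H2-M, 0.08 (SE 0.15). In NAC against mock this list had a median of -0.06, with -0.25 for H2-Ob, -0.18 for H2-Oa and -0.08 for H2-DMa.

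Factors that act on class II promoters and proteins that load peptides were split evenly: of 13 measured, 6 had a lower and 6 a higher mean in the mutant and 1 had equal means, with a median log2 difference of 0. The lysosomal protease Ctsl had -0.35 (SE 0.15, unadjusted p = 0.0366), the protease Lgmn -0.25 (SE 0.16) and the NF-Y subunit Nfyb 0.17 (SE 0.13). With NAC the NF-Y subunits lay on opposite sides, Nfyc at -0.30 (SE 0.11) and Nfyb at 0.29 (SE 0.13), and Lgmn had -0.37 (SE 0.16). Of 6 genes leading from the interferon gamma receptor to Ciita, 5 had lower means in the mutant, with a median of -0.04. Irf1, a factor that switches on Ciita, had -0.27 with genotype (SE 0.11, unadjusted p = 0.0323) and -0.24 with NAC (SE 0.11), while Socs1, a feedback inhibitor, had -0.15 (SE 0.14) and the receptor chain Ifngr2 0.08 (SE 0.11) with genotype. With NAC the receptor chain Ifngr1 had 0.21 (SE 0.10) and the kinase Jak1 -0.13 (SE 0.08).

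Genes of plasmacytoid dendritic cells had lower means in the mutant for 12 of 15 measured, with a median log2 difference of -0.35, against 0.0033 over all genes. At an unadjusted p under 0.05, limma gave 6 of 15, all lower, where 4.34% of all genes were lower. The mean over the list was 3.83 to 4.16 on the mutant mock arrays, against 4.35 to 4.46 on the wild-type mock arrays, and 4.12 to 4.39 on the mutant NAC arrays, against 4.47 to 4.64 on the wild-type NAC arrays. Cox6a2, a muscle-type cytochrome oxidase subunit that plasmacytoid cells also express, had -1.14 (SE 0.27, limma adjusted p = 0.225), Tlr7, a sensor of single-stranded RNA, -1.01 (SE 0.28, adjusted p = 0.298) and Atp1b1, a sodium pump subunit, -0.48 (SE 0.17, adjusted p = 0.412). The 3 with higher means were Clec10a at 0.285 (SE 0.19), Pacsin1 at 0.105 (SE 0.11) and Spib at 0.08 (SE 0.09). With NAC 12 of 15 had higher means, with a median of 0.16: Ly6d, a surface marker of lymphoid progenitors and plasmacytoid cell precursors, had 0.82 (SE 0.17, adjusted p = 0.219), Spib, a plasmacytoid factor, 0.34 (SE 0.09) and Bst2, an interferon-induced surface protein, 0.35 (SE 0.14). The 3 with lower means with NAC were Tlr7 at -0.33 (SE 0.28), Ptprs at -0.115 (SE 0.13) and Klk1 at -0.04 (SE 0.36). The NAC value of Spib joins opposite directions, with means of 3.10 ± 0.16 with NAC and 2.29 ± 0.15 in mock in mutant cells, and of 2.55 ± 0.10 with NAC and 2.69 ± 0.13 in mock in wild-type cells (SD, n = 3 each). Its genotype difference was 0.55 in NAC (SE 0.13, limma adjusted p = 0.495) and -0.40 in mock (SE 0.13, limma adjusted p = 0.640), on signals near or below the median gene. Without wild-type NAC replicate 2 the genotype median was -0.22, and the NAC median was 0.064 when mutant mock replicate 2 was left out, 0.083 when wild-type mock replicate 1 was, and 0.073 without both arrays that stand apart. Of the list, 5 genes lay below the median gene level. The list was drawn up with earlier results of these data known, so its counts describe these arrays.

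Genes of conventional dendritic cells had lower means in the mutant for 13 of 17 measured, with a median of -0.19, or -0.11 without wild-type mock replicate 1, and 4 of 17 had an unadjusted p under 0.05, all lower, where 4.34% of all genes were lower. The mean over the list was 4.30 to 4.39 on the mutant mock arrays, against 4.47 to 4.60 on the wild-type mock arrays, and 4.17 to 4.36 on the mutant NAC arrays, against 4.41 to 4.49 on the wild-type NAC arrays. Flt3, the cytokine receptor that drives dendritic cell development and also marks multipotent progenitors, had -0.74 (SE 0.17, limma adjusted p = 0.225). Wdfy4, needed for cross-presentation, had -0.37 (SE 0.10, limma adjusted p = 0.298) and the actin bundler Fscn1 -0.25 (SE 0.09). The value of Fscn1 joins -0.52 in mock and 0.02 in NAC (SE 0.13 each). Higher means were found for 4 genes, from 0.0067 for Xcr1 to 0.15 for Cd209a. With NAC, 12 of 17 had lower means, with a median of -0.05. The lectin Clec12a had 0.505 (SE 0.21), Flt3 -0.45 (SE 0.17) and Fscn1 -0.29 (SE 0.09). For Fscn1, the wild-type means were 2.88 with NAC and 3.44 in mock, and the mutant means 2.90 and 2.92. Of 11 dendritic cell transcription factors, 8 had lower means in the mutant, with a median of -0.15, among them Irf4 at -0.40 (SE 0.16) and Bcl11a at -0.21 (SE 0.11), while Batf3 had 0.22 (SE 0.14). Their median was -0.061 without mutant NAC replicate 1, -0.097 without wild-type mock replicate 3 and -0.014 without both arrays that stand apart. With NAC their median was 0.05, and Irf4 had 0.34 (SE 0.16), Spib, described above, 0.34 (SE 0.09) and Zbtb46 0.14 (SE 0.11). Irf4 too differed between the parts of its pooled values: it averaged 2.55 ± 0.17 in mutant NAC cells, against 3.39 ± 0.54 in wild-type NAC cells, and 2.65 ± 0.11 in mutant mock cells, against 2.62 ± 0.31 in wild-type mock cells (SD, n = 3 each). Its genotype difference was -0.84 in NAC (SE 0.23, limma adjusted p = 0.529) and 0.04 in mock (SE 0.23), and that of Batf3 0.46 in NAC and -0.02 in mock (SE 0.20 each). Among relatives of Tcf4 and Id2, the inhibitor Id3 had a genotype difference of -0.51 (SE 0.14, limma adjusted p = 0.298). Its mutant arrays, at 2.37 to 2.98, did not overlap with its wild-type arrays, at 3.08 to 3.90, as for 0.234% of all genes. Id1 had 0.26 (SE 0.12) and the E protein Tcf12 0.07 (SE 0.09), and with NAC Id4 had -0.27 (SE 0.13), Id3 -0.25 (SE 0.14) and Id1 0.20 (SE 0.12).

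**Figure D5:**
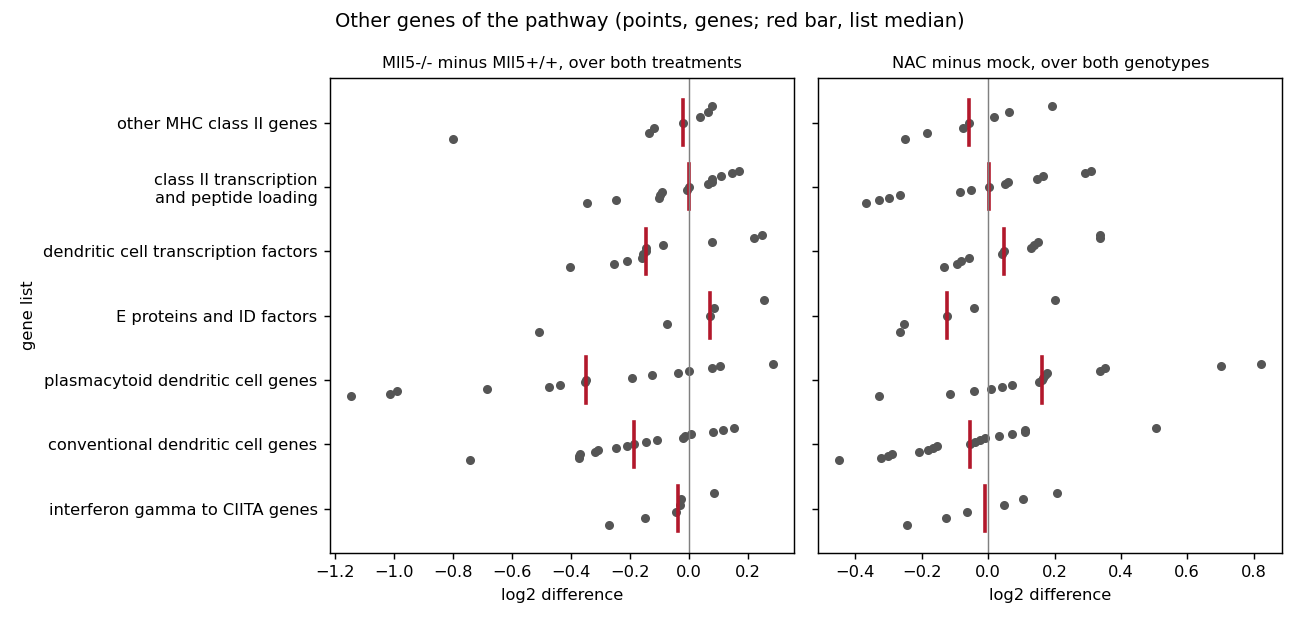
Log2 differences (horizontal axes) of the genes in 7 lists; each point is a gene, the red bar is the list's median, the left panel gives the mutant minus wild type over both treatments and the right panel NAC minus mock over both genotypes. The list medians ran from -0.35, for plasmacytoid dendritic cell genes, to 0.07 with genotype, and from -0.13 to 0.16 with NAC.

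Other blood cells, and the LSK cells themselves, were followed through their markers. B cell markers had lower means in the mutant for 8 of 8 measured, by a median of -0.08, none with an unadjusted p under 0.05 in limma. Of the 8, 5 lay below the median gene level, Ms4a1 among them at 1.81, while Cd79b had a mean of 6.44 and Cd79a one of 4.40. The genotype difference of Cd79a was -0.65 in mock and -0.09 in NAC (SE 0.34 each). The mean of the 8 was 3.06 to 3.27 on the mutant mock arrays, against 3.20 to 3.44 on the wild-type mock arrays, and 3.04 to 3.29 on the mutant NAC arrays, against 3.13 to 3.39 on the wild-type NAC arrays. Monocyte and macrophage markers had a median genotype difference of 0.02 over 10 genes, and with NAC one of 0.07, and 3 of 10 had an unadjusted p under 0.05, all higher, where 3.55% of all genes were higher: Ly6c2 at 0.69 (SE 0.27), Cd14 at 0.67 (SE 0.28) and Adgre1 at 0.56 (SE 0.14). Itgam, at -0.27 (SE 0.23), C1qb, at -0.10 (SE 0.13), and Lyz2, at -0.04 (SE 0.09), had lower means with NAC. The mean of the 10 was 5.47 to 5.54 on the mutant NAC arrays, against 5.02 to 5.58 on the mutant mock arrays, and 5.49 to 5.56 on the wild-type NAC arrays, against 5.10 to 5.58 on the wild-type mock arrays. Plasma cell markers had lower means in the mutant for 5 of 5, by a median of -0.10. At an unadjusted p under 0.05, limma gave 2 of 5, each lower, where 4.34% of all genes were lower. These were Jchain, the joining chain of secreted antibodies, at -2.78 (SE 0.43, limma adjusted p = 0.0597), and Sdc1 at -0.515 (SE 0.10, adjusted p = 0.144). The mean of the 5, in which Jchain had the widest gap, was 3.92 to 4.16 on the mutant mock arrays, against 4.59 to 4.83 on the wild-type mock arrays. With NAC it was 4.17 to 4.796 on the mutant arrays, against 4.98 to 5.42 on the wild-type arrays. By NAC over both genotypes, 4 of 5 had higher means, by a median of 0.07, and Jchain had 1.93 (SE 0.43, limma adjusted p = 0.258). All 5 T cell markers lay below the median gene level. Of 8 LSK markers, 4 had lower and 4 higher means in the mutant over both treatments, with a median of -0.02. At an unadjusted p under 0.05, limma gave 4 of 8 there, where 4.34% of all genes were lower and 4.74% higher. Flt3 at -0.74 (SE 0.17), Hlf at -0.30 (SE 0.12) and Kit at -0.17 (SE 0.08) were lower, and Procr at 0.34 (SE 0.14) was higher. With NAC, 7 of the 8 had lower means, by a median of -0.29. Of these 8, 6 had an unadjusted p under 0.05, all lower, where 3.88% of all genes were lower. The part of such cells in the class II differences and in that of Irf8 was not tested.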

How the data were processed

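The deposited table holds log2 signals of Affymetrix arrays that the authors summarised by RMA in Affymetrix Power Tools, as the submitters' processing notes name these tools. Tool versions, the genome build and the base of the logarithm were not stated in what was used here, and base 2 was taken from the range, 0.74 to 13.23. Of 41345 probe sets, 23521 had 1 gene symbol. The brightest was kept for each of 22180 symbols, with no filter, and 22139 of these are in the RefSeq table of GRCm38.p6. Group means were estimated from the 12 arrays in 1 linear model (limma 3.58.1, R 4.3.3, empirical Bayes), with Benjamini-Hochberg adjustment over the genes of each comparison. Correlations used 100000 resamples (numpy 2.4.6), and plots matplotlib 3.10.9 in Python 3.11.15. The fitting code was tested on simulated data. The members and lists were chosen with earlier results of these data known. All members are named in the comparisons. For each pathway list, the 3 genes with the smallest p by genotype and by NAC are named. For the plasmacytoid and conventional lists, genes of the opposite direction are also named, picked after their values were seen. Marker lists are given by counts and ranges, with genes picked after their values were seen. Genes most like Irf8 or the class II mean, taken over 3 chains since Cd74 has no probe set of its own, are the 5 with the highest correlation. Alternatives were another probe set summary, a filter, array weights, quantile normalization, centring, trend and robust variance, the compared groups alone, the replicate block, all probe sets in 1 fit and leaving out arrays. All 12 arrays were used, and their number sets the precision.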

Additional observations from a re-analysis of the deposited data

Results flagged for a closer look

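Ciita was singled out because its arrays moved in opposite directions with NAC in the 2 genotypes. Its log2 difference, NAC minus mock, was -0.18 in the mutant (SE 0.12, limma adjusted p = 0.912), with all 3 NAC arrays below all 3 mock arrays, and 0.34 in wild type (SE 0.12, adjusted p = 0.739), with all 3 NAC arrays above all 3 mock arrays. The interaction that tests this difference was -0.52 (SE 0.17, unadjusted p = 0.00888) and did not pass over all genes (adjusted p = 0.999). With each array left out in turn the interaction ranged from -0.60 to -0.47.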

How the results depend on the processing

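None of the 63 results of single members passed the threshold in any of 1352 alternatives over 22 settings, and 56 of these reversed a direction. The members' median difference moved in 13 of 151. Itgax has no value under the filter on the median level. The genotype difference of H2-Aa over both treatments ranged from -1.31 to -0.83.

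By setting, Irf8 by genotype in mock was 0.075 with a symbol's probe sets averaged. With genes at or above the median level only, the members' median by genotype in mock was -0.18 and 2 genes were called by genotype in NAC. With array weights 4 genes were called by genotype in NAC, 4 over both treatments and 2 by NAC in the mutant. With quantile normalization 2 were called by NAC in the mutant. The NAC difference of H2-Ab1 in wild type was -0.00085 with array weights, -0.0018 with quantile normalization and -0.0067 with centring, which also gave an Irf8 interaction of 0.013. With the compared groups alone 1 gene was called by genotype in mock, 1 by genotype in NAC and 1 by NAC in wild type. Without the pair of arrays that stand apart 0 genes were called by genotype in mock, 4 by genotype over both treatments, 0 by NAC in the mutant and 3 by NAC over both genotypes. Irf8 then had 0.18 by genotype in mock and 0.08 over both treatments, H2-Aa 0.19 and H2-Ab1 0.03 by NAC over both genotypes, the members' median was 0.285 by NAC in wild type and 0.076 over both genotypes, and 3 B cell markers were lower with NAC. The cause of these shifts was not tested.

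The labels state no pairing of arrays by replicate number. Residuals of arrays with the same number correlated at 0.013 on average (-0.057 to 0.056 over 18 pairs). Those with different numbers correlated at -0.0067 (-0.078 to 0.071 over 36 pairs). Of the 12 arrays, 7 correlated best with their own number, so this check does not settle whether the numbers pair the arrays. With the replicate block, 1 gene was called by genotype in mock and 1 over both treatments.

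With each array left out in turn, the genes called ranged from 1 to 4 by genotype in mock, 0 to 3 in NAC and 1 to 7 over both treatments, and from 0 to 2 by NAC in the mutant, 1 to 5 in wild type, 1 to 4 over both genotypes and 0 to 2 for the interaction. The members' median ranged from -0.35 to -0.07 by genotype in mock, -0.28 to -0.047 in NAC and -0.2975 to -0.16 over both treatments, and from -0.198 to 0.0033 by NAC in the mutant, -0.07 to 0.285 in wild type and -0.20 to 0.105 for the interaction. By genotype, Irf8 ranged from -0.23 to 0.28 in mock, -0.22 to 0.093 in NAC and -0.1275 to 0.1275 over both treatments, Tcf4 from -0.078 to 0.13 in mock, Siglech from -0.41 to 0.15 in NAC and Id2 from -0.15 to 0.0083 over both treatments. By NAC in the mutant, H2-Ab1 ranged from -0.44 to 0.11 and H2-Eb1 from -0.19 to 0.037. By NAC in wild type, Siglech ranged from -0.028 to 0.53, H2-Aa from -0.32 to 0.49 and H2-Ab1 from -0.18 to 0.12. By NAC over both genotypes, H2-Ab1 ranged from -0.22 to 0.059, Id2 from -0.032 to 0.13, H2-Aa from -0.29 to 0.12 and Itgax from -0.1425 to 0.015. For the interaction, H2-Ab1 ranged from -0.445 to 0.105, Irf8 from -0.31 to 0.20, Tcf4 from -0.045 to 0.185 and H2-Aa from -0.74 to 0.07. T cell markers had a genotype median from -0.12 to 0.06, and conventional dendritic cell genes a NAC median from -0.13 to -0.025.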
